A study of Mus musculus with 6 samples.

Results

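Emerging hematopoietic stem cells and their precursors are staged by a set of surface antigens, and transcripts of 11 genes for such antigens were examined in CD31+ckit+ cells of the E10.5 aorta-gonad-mesonephros (AGM) region. The genes were taken by symbol. They are *Itga2b* (CD41), *Spn* (CD43), *Ptprc* (CD45), *Cd34*, *Procr* (EPCR), *Cd93*, *Prom1* (CD133), *Gpr56*, *Slamf1* (CD150), *Cd48* and *Ly6a* (Sca-1), and together they are 11 of the 24062 genes counted. *Gpr56* is the symbol used in the count tables for the gene now called *Adgrg1*. All embryos carried the *Gata2Venus* allele, in which an IRES-Venus cassette in the 3′ untranslated region of *Gata2* reports *Gata2* expression, on the strain given as C57BL/6JOlaHsd. CD31+ckit+ cells were sorted by Venus fluorescence into an intermediate fraction, Vmed (labelled G2Vi), and a high fraction, Vhigh (G2Vh), and RNA of each was sequenced in 3 libraries. Both fractions carry the reporter and the labels give no treatment beyond the sort, so that the contrast is the level of Venus. The sort used CD31, ckit and the reporter, and none of the antigens of the 11 genes.

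In the midgestation embryo, hematopoietic stem cells arise from hemogenic endothelial cells lining the dorsal aorta, which round up, bulge into the lumen and form intra-aortic hematopoietic clusters. During this endothelial-to-hematopoietic transition the cells first keep vascular antigens such as VE-cadherin, and the hematopoietic antigens CD41, CD43 and CD45 then appear one after another. EPCR, CD34 and CD93 are shared by endothelium and early hematopoietic cells. CD150, CD48 and Sca-1 belong to the phenotype by which stem cells are purified from adult bone marrow, where CD48 marks progenitors and is absent from stem cells.

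The 6 libraries held between 8296831 and 12035206 reads on genes, and between 10427 and 18460 genes had at least 1 read. Expression is given as CPM, the reads of a gene scaled by the total of reads on genes in that library. With 3 reads as the fewest to be taken as detected, the limit lay between 0.249 and 0.362 CPM, which covers counting error only. The labels do not say whether the libraries came from separate litters, so the tests measure the spread between these libraries. The endothelial marker *Cdh5*, which encodes VE-cadherin, and the sorted markers *Pecam1* (CD31) and *Kit* (ckit) were detected in every library. Vhigh replicate 1 had the fewest genes detected, and 3 of the 11 antigen genes (*Ly6a*, *Slamf1* and *Prom1*) had no read there. Across all 12688 genes that passed edgeR's filter on low counts, the biological coefficient of variation was 1.16 and the smallest adjusted p of edgeR's quasi-likelihood test was 0.664.

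*Gpr56* was the antigen transcript with the smallest p, at a mean of 104 CPM in Vmed and 934 CPM in Vhigh. The genes of CD41, CD43 and CD45 and of CD34 and EPCR had higher means in Vhigh, and those of CD150, CD133 and CD93 lower ones, but none of these 8 differences passed an unadjusted p of 0.05 in edgeR's quasi-likelihood test. *Ly6a* and *Cd48* were at or near the limit of detection in several libraries. All 11 antigen genes passed the filter on low counts. Of these, 0 had an adjusted p under 0.05 in edgeR's quasi-likelihood test, as for all genes tested (0%). At an unadjusted p under 0.05 there was 1 gene, *Gpr56*, against 2.04% of all genes tested. The fitted log2 fold change, Vhigh over Vmed, was above 0 for 8 of the 11 genes and below 0 for *Slamf1*, *Prom1* and *Cd93*, where 48.9% of all genes were above 0. The median was 0.456 for the 11 genes and -0.02 for all genes tested. Without Vmed replicate 1 or without Vhigh replicate 2 the split was 6 above and 5 below. A log2 fold change above 1 was fitted for *Gpr56* and *Spn*, and for 12.8% of all genes. Every Vhigh library lay above every Vmed library in CPM for *Gpr56* and *Spn* (4.15% of all genes), and below for *Slamf1* (4.71%). In the pairs of libraries with the same replicate number, Vhigh was higher in 3 of 3 pairs for *Gpr56*, *Cd34*, *Procr*, *Ptprc* and *Spn*, and this was so for 15.2% of all genes. As the RNA is of sorted bulk cells, a lower level can come from fewer cells carrying a transcript or from less of it per cell, and these cannot be told apart.

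**Figure D1:**
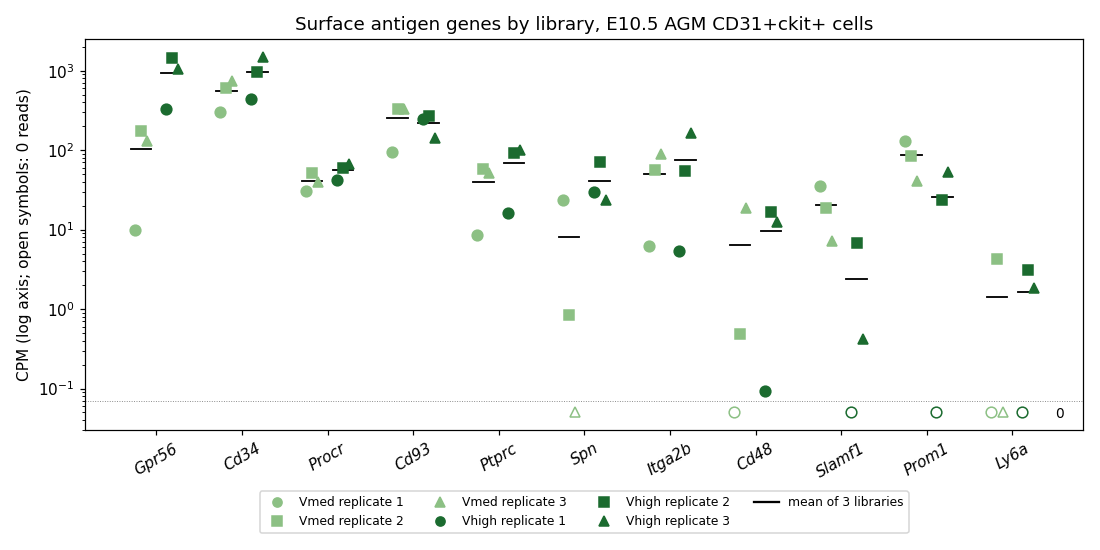
Expression (CPM, log axis) of the 11 antigen genes in the 3 Vmed libraries (light green) and 3 Vhigh libraries (dark green), with the replicate number given by the symbol, the mean as a bar and libraries without a read as open symbols. Among the genes detected in all 6 libraries, only *Gpr56* shows a clear gap between the fractions, from 173 CPM in the highest Vmed library to 325 CPM in the lowest Vhigh library.

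*Gpr56* encodes an adhesion G protein-coupled receptor expressed by hematopoietic stem and progenitor cells. It lies on the plus strand of chromosome 8 of GRCm38, from 94974751 to 95014217. It had 9.84, 173 and 129 CPM in Vmed replicates 1, 2 and 3, and 325, 1426 and 1052 CPM in Vhigh replicates 1, 2 and 3. Every Vhigh library was thus above every Vmed library, although the spread within each fraction was wide and replicate 1 was the lowest library of both. The means were 104 ± 84.4 CPM (SD, n = 3) and 934 ± 560.0 CPM (SD, n = 3). This is a fitted log2 fold change of 3.11, Vhigh over Vmed, with a standard error of 0.83. The unadjusted p was 0.00604 and the adjusted p 0.9998 by edgeR's quasi-likelihood test. Of the 12688 genes tested, *Gpr56* had rank 46 by p. The exact two-sided permutation test gave p = 0.1, the smallest that 3 libraries against 3 can give. Within the same-numbered pairs the log2 ratio was 5.07, 2.90 and 3.01. With single libraries left out, the log2 fold change stayed between 2.57 (without Vmed replicate 1) and 3.68 (without Vmed replicate 2).

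Whether *Gpr56* passed the threshold depended on the test. A block on the replicate number gave 3.63 on the log2 scale (standard error 0.45), and an adjusted p of 0.565 by the quasi-likelihood test and of 6.69e-06 by edgeR's likelihood ratio test. Without the block, the adjusted p was 0.206 in the likelihood ratio test, 0.257 in DESeq2 and 0.664 in limma-voom. In the quasi-likelihood test on all genes, without the filter on low counts, it was 0.000194. The direction was the same in each of these fits, but the call was not.

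In the RefSeq promoter table of GRCm38.p6, 9 of the 11 genes have a window, and *Gpr56* has 2, for different start sites. The 250 bases before each start were searched on both strands for the letters of 4 motif families, as were 32851 windows of the whole table. For GATA factors the letters were AGATAA or, with another first base, TGATAA, and 16.6% of all windows held a match. For ETS factors they were AGGAAG or, with another first base, CGGAAG, which 39.2% held. For RUNX factors they were TGTGGT or, with another base inside, TGCGGT, which 18.6% held. For E-box factors they were CAGCTG or, with another base inside, CAGATG, which 25.5% held. Neither window of *Gpr56* held any of the 4, which says only that these letters are not in these windows. The window of the second start is printed up to the first annotated exon, since *Gpr56* had the smallest p of the 11 genes, and it has no capitals because no match was found.

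Gpr56, chr8:94984149-94984370, plus strand: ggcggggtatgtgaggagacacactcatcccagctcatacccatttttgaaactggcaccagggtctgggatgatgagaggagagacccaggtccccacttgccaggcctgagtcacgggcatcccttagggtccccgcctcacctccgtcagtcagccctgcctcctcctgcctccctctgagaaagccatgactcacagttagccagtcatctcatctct

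*Cd34* encodes a sialomucin of endothelial and hematopoietic progenitor cells and lies on chromosome 1 from 194938819 to 194961279, on the plus strand. It was at 304, 611 and 739 CPM in Vmed and at 435, 971 and 1501 CPM in Vhigh replicates 1, 2 and 3. Vhigh was higher in each same-numbered pair, with log2 ratios of 0.58, 0.53 and 1.01. The fractions nevertheless overlapped, since Vhigh replicate 1 was below Vmed replicates 2 and 3. The fitted value was 0.77 on the log2 scale (standard error 0.54), with an adjusted p of 0.9998 by edgeR's quasi-likelihood test. With single libraries left out it ranged from 0.32 (without Vhigh replicate 3) to 1.099 (without Vhigh replicate 1). Blocking on the replicate number gave 0.70 with a standard error of 0.20. By edgeR's quasi-likelihood test the unadjusted p of *Cd34* was 0.183 without the block and 0.0129 with it, and the blocked adjusted p was 0.987. The block brought the number of the 11 genes at an unadjusted p under 0.05 from 1 to 2, and that of all genes tested from 259 to 528.

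*Procr*, on the plus strand of chromosome 2 from 155751117 to 155755471, encodes the endothelial protein C receptor, which marks endothelium and early hematopoietic precursors. It had 30.3, 51.3 and 40.0 CPM in Vmed and 42.3, 59.6 and 67.7 CPM in Vhigh replicates 1, 2 and 3. Vhigh was again higher in each pair, by log2 ratios of 0.53, 0.07 and 0.74. Its log2 fold change of 0.45 was smaller than its standard error of 0.76 (exact two-sided permutation test, p = 0.2). *Procr* and *Cd34* were the pair of antigen genes most alike across the 6 libraries. The root-mean-square (rms) difference of their centred log2 CPM was 0.435, against 5.02 for the least similar pair, *Spn* and *Prom1*.

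*Cd93* lies on the minus strand of chromosome 2 from 148436640 to 148443563 and encodes a C-type lectin-like receptor of endothelium, myeloid cells and early progenitors. It had 95.6, 333 and 328 CPM in Vmed and 247, 271 and 142 CPM in Vhigh. The Vmed libraries enclosed the whole range of the Vhigh libraries. The log2 ratio was 1.43 in pair 1, -0.44 in pair 2 and -1.21 in pair 3, so that single pairs had opposite directions. A log2 fold change of -0.22 (standard error 0.56) was fitted, which turned positive without Vmed replicate 2, Vmed replicate 3 or Vhigh replicate 3.

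*Prom1*, on the minus strand of chromosome 5 from 43993620 to 44102032, encodes prominin, a membrane glycoprotein of stem cells and of many epithelia. It had 130, 85.6 and 41.0 CPM in Vmed, no read in Vhigh replicate 1, and 23.5 and 52.6 CPM in Vhigh replicates 2 and 3. Within the Vhigh fraction it was therefore undetected in a library with 10660122 reads on genes, and had 255 and 633 reads in the others. Its fitted log2 fold change was -1.82 (standard error 1.45). With single libraries left out it ranged from -3.05 (without Vhigh replicate 3) to -1.24 (without Vhigh replicate 1), and it was -0.75 without both replicate 1 libraries. Pair 3 went the other way, with a log2 ratio of 0.35.

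*Itga2b*, *Spn* and *Ptprc* encode the antigens that appear in sequence as cells leave the endothelium. *Itga2b* lies on the minus strand of chromosome 11 from 102453297 to 102470122 and encodes CD41, integrin alpha IIb, which is also the fibrinogen receptor subunit of megakaryocytes and platelets. It had 6.18, 57.0 and 88.2 CPM in Vmed and 5.35, 54.7 and 163 CPM in Vhigh replicates 1, 2 and 3. The replicates spread more than the fractions, with nearly equal values of Vmed and Vhigh in replicates 1 and 2 and a gap in replicate 3 alone. Its log2 fold change was 0.53 (standard error 1.17) and became -0.83 without Vhigh replicate 3.

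*Spn*, on the minus strand of chromosome 7 from 127132232 to 127137823, encodes CD43, the sialophorin of leukocytes and their progenitors. It had 23.6, 0.84 and 0 CPM in Vmed and 29.7, 70.9 and 23.6 CPM in Vhigh replicates 1, 2 and 3, from 206, 7 and 0 reads against 317, 770 and 284 reads. All 3 Vhigh libraries therefore carried the transcript, while in Vmed only replicate 1 did at a comparable level. The fractions were separated in CPM only by the narrow gap between Vmed replicate 1 (23.57 CPM) and Vhigh replicate 3 (23.60 CPM). With library sizes adjusted by the TMM method these values were 24.8 and 24.1, and the fractions overlapped. For *Spn* the fit gave a log2 fold change of 2.22 and a standard error of 1.75, with an adjusted p of 0.9998 by edgeR's quasi-likelihood test. It was 6.57 without Vmed replicate 1, where a fold against libraries at or near 0 depends on the prior count. The log2 ratio was 0.39 in pair 1. In the other pairs Vmed was at 7 and 0 reads.

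The 250 bases before the start of *Spn* are shown because it is, with *Gpr56* and *Slamf1*, among the genes whose fractions did not overlap in CPM. The capitals mark its only match to the 4 families, an ETS match read on the opposite strand.

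Spn, chr7:127137824-127138073, minus strand: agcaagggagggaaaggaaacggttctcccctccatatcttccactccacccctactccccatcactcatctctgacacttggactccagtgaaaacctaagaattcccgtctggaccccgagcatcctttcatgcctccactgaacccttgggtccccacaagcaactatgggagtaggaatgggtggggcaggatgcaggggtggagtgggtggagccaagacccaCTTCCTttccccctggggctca

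*Ptprc* lies on the minus strand of chromosome 1 from 138062861 to 138175708 and encodes CD45, the receptor tyrosine phosphatase of all leukocytes. It had 8.58, 58.2 and 51.3 CPM in Vmed and 16.04, 91.2 and 99.3 CPM in Vhigh replicates 1, 2 and 3. Replicate 1 was low in both fractions, and Vhigh was higher in each pair, with log2 ratios of 0.94, 0.50 and 0.94. A log2 fold change of 0.75 (standard error 0.96) was fitted, which was between 0.28 (without Vmed replicate 1) and 1.21 (without Vhigh replicate 1) with single libraries left out. The pair differences of *Ptprc* were thus uniform, but the spread between replicates was larger than the difference between the fractions (exact two-sided permutation test, p = 0.5).

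*Ptprc* and *Slamf1* were the only antigen genes of the 9 with a promoter window that held a GATA match. The second start of *Ptprc* had 2, which begin 100 and 25 bases before it, and the window of the first start held none. Both matches lie inside the annotated gene, whose 5′ end is at 138175708. Each is printed with 10 bases on both sides, with the GATA letters in capitals, since the cells were sorted by a reporter of a GATA factor gene. A match is a description of the letters and does not show that Gata2 binds there.

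Ptprc, chr1:138175211-138175236, minus strand: gctccccatcTGATAAgacagagtgc

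Ptprc, chr1:138175136-138175161, minus strand: acttcaagagAGATAAccattatttt

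*Slamf1*, on the plus strand of chromosome 1 from 171767127 to 171801184, encodes CD150, the SLAM family receptor that is used to isolate adult stem cells and is also present on megakaryocyte progenitors, lymphocytes and macrophages. It had 35.5, 18.6 and 7.21 CPM in Vmed and 0, 6.72 and 0.415 CPM in Vhigh replicates 1, 2 and 3, from 310, 154 and 70 reads against 0, 73 and 5 reads. It was the only one of the 11 genes with every Vhigh library below every Vmed library, and it stayed so with TMM-adjusted library sizes. The gap was narrow, between 7.21 CPM in Vmed replicate 3 and 6.72 CPM in Vhigh replicate 2. Its fitted log2 fold change was -3.30 (standard error 1.90). By edgeR's quasi-likelihood test the unadjusted p was 0.142 and the adjusted p 0.9998. The exact two-sided permutation test gave p = 0.1, which 3 libraries against 3 cannot go below. With single libraries left out the log2 fold change ranged from -6.62 (without Vhigh replicate 2) to -2.58 (without Vmed replicate 1), and it was -1.99 without both replicate 1 libraries.

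The window before the *Slamf1* start held a GATA match that begins 130 bases before the start and an ETS match nearer to it, both in capitals. It is printed up to the first annotated exon.

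Slamf1, chr1:171766882-171767126, plus strand: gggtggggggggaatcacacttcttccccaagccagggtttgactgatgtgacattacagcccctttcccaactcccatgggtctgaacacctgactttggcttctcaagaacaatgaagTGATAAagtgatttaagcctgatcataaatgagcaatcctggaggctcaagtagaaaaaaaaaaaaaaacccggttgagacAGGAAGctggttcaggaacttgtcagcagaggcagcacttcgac

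*Cd48*, on the plus strand of chromosome 1 from 171682009 to 171705258, encodes another SLAM family molecule and lies close to *Slamf1* in the same cluster of genes. It was at 0, 0.48 and 18.9 CPM in Vmed and at 0.094, 16.8 and 12.3 CPM in Vhigh replicates 1, 2 and 3. Both replicate 1 libraries had at most 1 read, and in replicate 2 Vhigh had 182 reads and Vmed 4. With a log2 fold change of 0.46 and a standard error of 2.36 no direction can be given, and the sign changed without Vmed replicate 1, Vmed replicate 2 or Vhigh replicate 2.

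*Ly6a*, on the minus strand of chromosome 15 from 74994877 to 74998031, encodes Sca-1. It had 35 reads in Vmed replicate 2, 34 and 22 reads in Vhigh replicates 2 and 3, and no read in the other 3 libraries, which is at most 4.22 CPM. At these counts a difference was not detectable (log2 fold change 0.17, standard error 2.70). *Ly6a* has near-identical neighbours in the *Ly6* family, and reads that align to several places were not counted, so that its level is uncertain. *Slamf1*, *Cd48* and *Ly6a* encode the 3 antigens of the adult stem cell phenotype, CD48 by its absence. Their detection thus differed between replicates. In replicate 1 only *Slamf1* was above the limit of detection, and only in Vmed. In replicate 2 all 3 were above it in both fractions. In replicate 3 *Ly6a* was detected in Vhigh only.

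**Figure D2:**
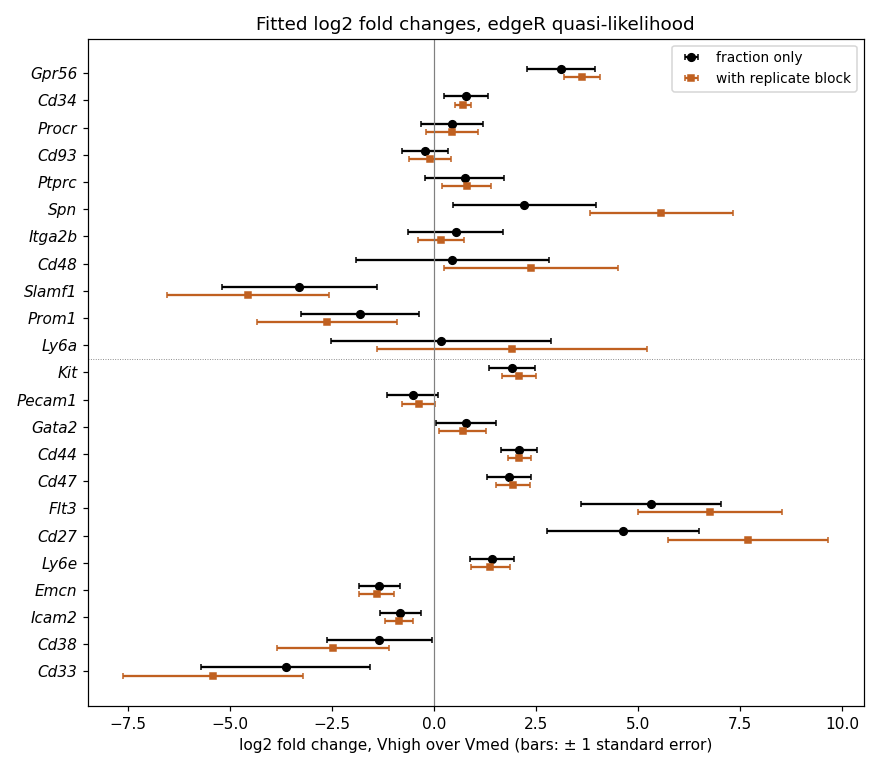
Log2 fold change, Vhigh over Vmed, for the 11 antigen genes (above the dotted line) and for sorting and companion antigen genes (below it), fitted by edgeR on the fraction alone (black circles) or with the replicate number as a block (orange squares), with bars of 1 standard error. *Gpr56* at 3.11 and *Cd44* at 2.09 have short bars far from 0, while *Spn*, *Slamf1*, *Cd48* and *Ly6a* have standard errors between 1.75 and 2.70.

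Between genes, levels were compared as RPKM, CPM divided by the exon-union length in kilobases. *Cd34* was the highest of the 11 genes in all 3 Vmed libraries, at 41.7, 83.9 and 101.3 RPKM. In Vhigh it shared the first places with *Gpr56*. The values of *Gpr56* and *Cd34* were 59.9 and 59.7 RPKM in Vhigh replicate 1, 263 and 133 RPKM in replicate 2, and 194 and 206 RPKM in replicate 3. *Gpr56* had rank 7 of 11 in Vmed replicate 1, at 1.82 RPKM, and rank 3 in Vmed replicates 2 and 3, at 31.9 and 23.8 RPKM. The log2 ratio of *Gpr56* to *Cd34* within a library was -4.52, -1.39 and -2.09 in Vmed and 0.00, 0.98 and -0.09 in Vhigh. Every Vhigh library was above every Vmed library in this ratio, which does not depend on the scaling of a library. The CPM of *Gpr56* alone also separated the fractions. How many of all genes would be separated by a ratio to *Cd34* was not counted. Of the summed CPM of the 11 genes, *Gpr56* made up 1.53%, 12.4% and 8.94% in Vmed and 29.5%, 47.6% and 33.8% in Vhigh. The share of *Cd34* lay between 32.4% and 51.2% in all 6 libraries.

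In Vhigh, *Gpr56* and *Cd34* were above the other 9 genes in every library, the lowest of their values being 59.7 RPKM and the highest of the others 40.6 RPKM, for *Cd93*. All other neighbours in the order of the mean RPKM overlapped in range, in both fractions. *Procr* had rank 3 or 4 in each library, with 14.9 to 25.3 RPKM in Vmed and 20.8 to 33.3 RPKM in Vhigh. *Cd93* was ahead of *Procr* in 4 of the 6 libraries. The CD45 gene *Ptprc* was low, with 0.47 to 3.18 RPKM in Vmed and 0.88 to 5.42 RPKM in Vhigh, and never above rank 7. Its exon-union length is 18.3 kb, and with the longest transcript of 5740 bases in its place the level would be higher. The last 3 ranks were shared by *Ly6a*, *Cd48*, *Slamf1*, *Spn*, *Prom1* and *Ptprc* in varying order.

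Ratios to the VE-cadherin gene *Cdh5* set antigen genes against an endothelial one within a library. Of these antigens, CD34 is itself shared with endothelium. *Cdh5* itself had 97.5, 361 and 275 CPM in Vmed and 56.7, 145 and 146 CPM in Vhigh, lower in each pair. The log2 RPKM ratio of *Ptprc* to *Cdh5* was -5.63, -4.76 and -4.54 in Vmed and -3.94, -2.79 and -2.68 in Vhigh, without overlap. That of *Itga2b* to *Cdh5* was -4.36, -3.04 and -2.01 in Vmed and -3.78, -1.78 and -0.22 in Vhigh, higher in each pair but overlapping. That of *Cd34* to *Cdh5* was 0.84, -0.03 and 0.63 in Vmed and 2.15, 1.95 and 2.57 in Vhigh, again without overlap. The ratios of *Ptprc* and *Cd34* to *Cdh5* thus separated the fractions, which the CPM of neither did. They include the lower *Cdh5* of Vhigh, and ratios to other endothelial genes were not taken. How many of all genes would be separated by a ratio to *Cdh5* was not counted.

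The ratio of *Itga2b* to *Ptprc* sets the earlier antigen CD41 against the later CD45. Its log2 was 1.27, 1.72 and 2.53 in Vmed and 0.16, 1.01 and 2.46 in Vhigh, lower in Vhigh in 3 of 3 pairs, by little in replicate 3. Lengths cancel in a comparison of this ratio between libraries, so with the longest transcripts the order was the same. *Procr* relative to *Cd34* was also lower in Vhigh in each pair, with a log2 ratio of -1.48, -1.73 and -2.36 in Vmed and -1.52, -2.18 and -2.63 in Vhigh, where the pair 1 values were nearly equal. These ratios are descriptions and were not tested.

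**Figure D3:**
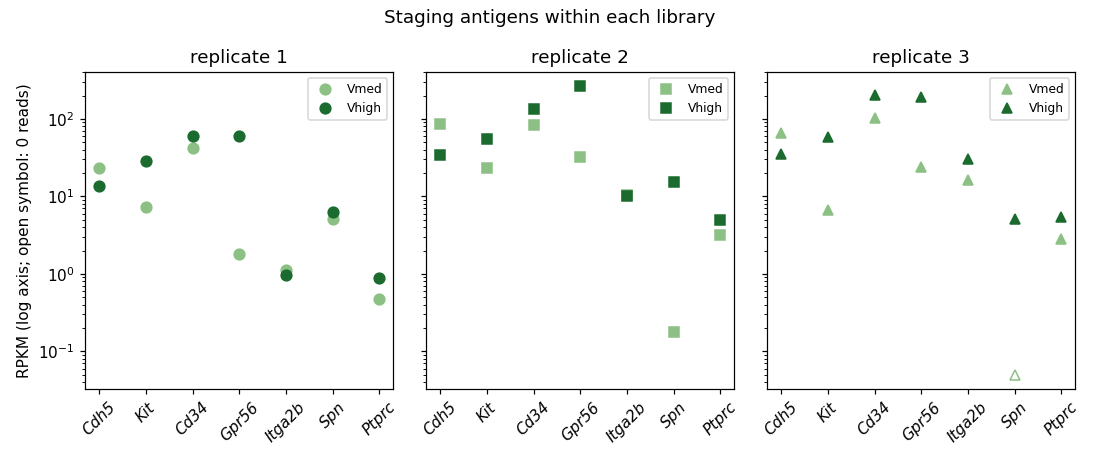
Expression per length (RPKM, log axis) of *Cdh5*, *Kit*, *Cd34*, *Gpr56*, *Itga2b*, *Spn* and *Ptprc* in each replicate, with Vmed in light green, Vhigh in dark green and a library without reads as an open symbol. In every replicate *Cdh5* is higher in Vmed, and *Kit*, *Cd34*, *Gpr56*, *Spn* and *Ptprc* are higher in Vhigh, with the widest gap in replicate 1 at *Gpr56* (1.82 against 59.9 RPKM).

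*Kit*, the receptor used in the sort, had 64.1, 208 and 59.1 CPM in Vmed and 255, 490 and 521 CPM in Vhigh, which is 1.91 on the log2 scale (standard error 0.57). In RPKM, the log2 ratio of *Gpr56* to *Kit* was -1.99, 0.46 and 1.84 in Vmed and 1.07, 2.26 and 1.73 in Vhigh. It was higher in Vhigh in replicates 1 and 2 and slightly lower in replicate 3, so that in replicate 3 both transcripts differed between the fractions by a similar factor. *Pecam1* had a log2 fold change of -0.52. *Gata2*, the gene of the reporter, had 50.3, 29.4 and 68.3 CPM in Vmed and 39.2, 82.5 and 142 CPM in Vhigh, higher in 2 of 3 pairs. In replicate 1, where *Gata2* was lower in Vhigh than in Vmed, *Gpr56* had the largest of its 3 pair ratios.

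Companion antigens were read from 3 lists. Of all 12688 genes tested, 48.9% had a log2 fold change above 0, and the median was -0.02. At an unadjusted p under 0.05 in edgeR's quasi-likelihood test, 110 of them were higher in Vhigh and 149 lower. Every Vhigh library was above every Vmed library for 4.15% of all genes and below for 4.71%. Of 9 tested genes of the endothelial side, 1 had a log2 fold change above 0 and 8 below, with a median of -0.781, and 1 was lower at an unadjusted p under 0.05. This was *Emcn*, the sialomucin endomucin, with 465, 951 and 869 CPM in Vmed and 358, 173 and 360 CPM in Vhigh (log2 fold change -1.34, standard error 0.50). *Icam2*, an endothelial adhesion molecule, was also lower in every Vhigh library, at 65.6 to 120 CPM against 148 to 167 CPM. The endothelial antigens *Procr*, *Cd34* and *Cd93*, with log2 fold changes of 0.45, 0.77 and -0.22, were all above the median of this list.

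Of 9 tested adhesion receptor genes, 6 were above 0 and 3 below, where 48.9% of all genes were above 0. Their median was 0.041, and 2 were higher at an unadjusted p under 0.05, as were 110 of all 12688 genes. *Cd44*, which encodes the hyaluronan receptor, had 66.6, 62.4 and 74.7 CPM in Vmed and 272, 343 and 278 CPM in Vhigh. Its replicates agreed within a narrow range in both fractions, and its log2 fold change of 2.09 had a standard error of 0.44. The adjusted p of *Cd44* was 0.962 by edgeR's quasi-likelihood test and 0.00213 by DESeq2. *Cd47*, which encodes the ligand that protects cells from phagocytosis, had 42.2, 98.1 and 137 CPM in Vmed and 351, 270 and 381 CPM in Vhigh, which is 1.84 on the log2 scale (standard error 0.54).

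Of 11 tested genes of stem and progenitor staging, 6 were above 0 and 5 below, where 48.9% of all genes were above 0. Their median was 0.025, and 2, *Flt3* and *Ly6e*, were higher at an unadjusted p under 0.05, as were 110 of all 12688 genes. *Flt3*, a cytokine receptor of multipotent and lymphoid-primed progenitors, had 0.114, 2.05 and 0 CPM in Vmed and 14.1, 38.6 and 35.4 CPM in Vhigh. *Cd27*, a TNF receptor family member of progenitors and lymphocytes, had 3.78, 0 and 0 CPM in Vmed and 44.0, 31.4 and 22.4 CPM in Vhigh. Neither had a read in Vmed replicate 3, and every Vhigh library was above every Vmed library for both (4.15% of all genes). *Cd27* did not pass an unadjusted p of 0.05 in edgeR's quasi-likelihood test, where its adjusted p was 0.9998. *Flt3* had an adjusted p of 0.9998 in edgeR's quasi-likelihood test and of 0.0496 in DESeq2. *Ly6e*, of the same family as *Ly6a*, had 88.8, 90.9 and 160 CPM in Vmed and 426, 343 and 161 CPM in Vhigh (log2 fold change 1.43, standard error 0.54), with nearly equal values in replicate 3. In the other direction, *Cd38* had 122, 234 and 176 CPM in Vmed and 0.094, 112 and 112 CPM in Vhigh (log2 fold change -1.34, standard error 1.28). *Cd33* had 21.3, 8.80 and 7.10 CPM in Vmed and 0, 0.18 and 2.83 CPM in Vhigh (log2 fold change -3.63, standard error 2.07). With single libraries left out, *Cd33* ranged from -7.04 (without Vhigh replicate 3) to -2.95 (without Vmed replicate 1) and *Cd38* from -1.80 (without Vhigh replicate 3) to -0.75 (without Vhigh replicate 1).

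Genes with a pattern like that of an antigen gene were taken as the 3 with the smallest rms difference of centred log2 CPM over the 6 libraries. For *Gpr56* these were *Fam84b* (0.519), *Cbfa2t3* (0.64) and *Acap1* (0.661). The rms difference grows with the spread of a gene over the libraries. Its size therefore does not show how closely a gene of wide spread, such as *Gpr56*, was followed. For *Cd34* the nearest was *Dnajc11* (0.123), for *Ptprc* *Hist1h1d* (0.17), for *Cd93* *Id1* (0.149), for *Procr* *Zfp706* (0.151) and for *Itga2b* *Sap130* (0.265). For *Slamf1* it was *Ly6g6f* (0.421), for *Prom1* *Arhgap42* (0.335), for *Cd48* *Zbed5* (0.425) and for *Spn* *Slc30a4* (0.919). For *Ly6a* the nearest was *Zfp879* (0.162), where few reads make many genes alike. *Hist1h1d*, the nearest to *Ptprc*, was itself low, at 0 to 2.08 CPM. The next for *Ptprc* was *Arrdc1* (0.198), at 5.15 to 69.3 CPM. Among the antigen genes, the one nearest to *Slamf1* was *Prom1*, and the one nearest to *Prom1* was *Slamf1* (1.95). Both had no read in Vhigh replicate 1. Other pairs of antigen genes were closer, such as *Procr* and *Cd34* (0.435).

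Markers of several other cell types differed between the fractions, and several antigens are also made by those cells. The macrophage, megakaryocyte, mesenchyme, neutrophil, and epithelial and neural sums did not overlap between the fractions. The endothelial, red cell and mast cell sums did. Of all 12688 genes tested, 6487 had a log2 fold change below 0. All 12 macrophage genes had a log2 fold change below 0, with a summed level of 1043 to 1827 CPM in Vmed and 142 to 547 CPM in Vhigh. Of these, *Emr1* (F4/80) was at 0, 0 and 0.249 CPM in Vhigh *C1qa* was at 0 in Vhigh replicate 1, and *Mpeg1* was at 0 in Vhigh replicates 2 and 3. Of 11 tested megakaryocyte and platelet genes 8 were below 0, with sums of 594 to 1285 CPM in Vmed and 340 to 581 CPM in Vhigh. Of 12 mesenchyme genes 11 were below 0, with sums of 2296 to 5546 CPM against 370 to 773 CPM, and of 12 endothelial genes 11 were below 0, with 1360 to 5609 CPM against 1057 to 3722 CPM. Of 5 tested neutrophil genes 4 were above 0, with sums of 335 to 522 CPM against 773 to 1271 CPM. Most of each sum was *Mpo*, at 272, 493 and 311 CPM in Vmed and 584, 1130 and 748 CPM in Vhigh. *Elane* was higher in Vhigh in 1 pair only. *S100a8* was lower in 3 of 3 pairs, with 15.6, 0.72 and 19.2 CPM in Vmed and 8.63, 0 and 0 CPM in Vhigh. Red cell sums were 188 to 602 CPM against 100.8 to 233 CPM, with the 4 adult globin genes of the list at 0 in all libraries. Reads that align to several places were not counted, so that this 0 does not show that adult globin RNA was absent. Epithelial and neural sums were 237 to 271 CPM against 92.4 to 161 CPM. Mast cell sums were 27.7 to 59.0 CPM against 39.3 to 137 CPM, with *Mcpt4* and *Cma1* at 0 throughout. The 2 tested mast cell genes had opposite directions, with log2 fold changes of 3.58 for *Cpa3* and -1.05 for *Hdc*. The highest sum, in Vhigh replicate 1, was nearly all *Cpa3* (137 CPM). The macrophage, megakaryocyte and mesenchyme sums were lower in Vhigh, as were *Slamf1* and, in 2 of 3 pairs, *Prom1* and *Cd93*, whereas *Ptprc*, which macrophages also express, was higher in each pair. The part of these cells in the antigen values was not tested.

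**Figure D4:**
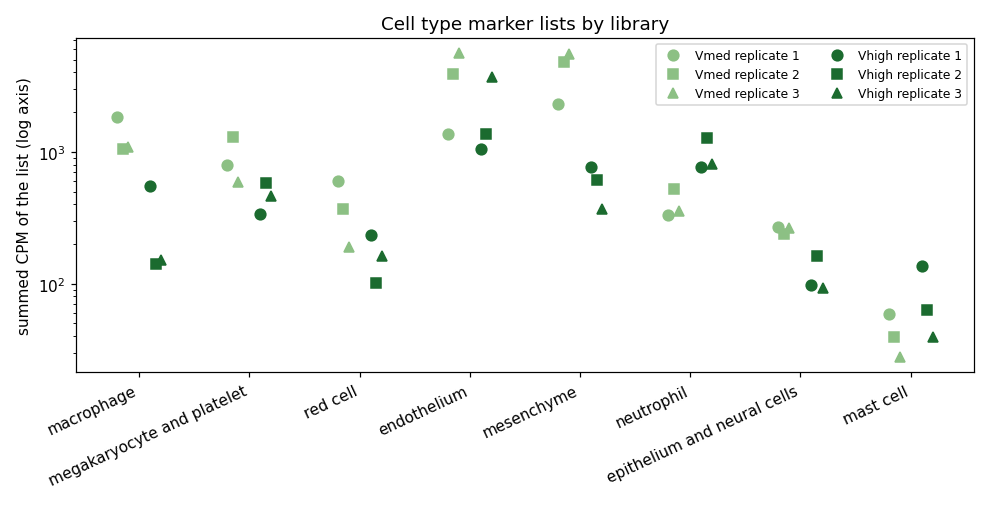
Summed expression (CPM, log axis) of 8 cell type marker lists in the 3 Vmed (light green) and 3 Vhigh (dark green) libraries, with the replicate number given by the symbol. The macrophage and mesenchyme sums of all Vhigh libraries lie below those of all Vmed libraries (142 to 547 against 1043 to 1827 CPM, and 370 to 773 against 2296 to 5546 CPM). The neutrophil sums lie above, with *Mpo* making up most of each.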

How the data were processed

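RNA of sorted CD31+ckit+Vmed and CD31+ckit+Vhigh cells was amplified by the SMARTer protocol and sequenced as single reads. Reads were aligned by the authors to the mouse genome GRCm38/mm10, and the deposited values are raw counts of reads on each gene, with no normalization. The submitters' processing notes name TopHat, Bowtie 1.1.2 and HTSeq. The annotation and the use of strand in counting are not given in the sources used here, so overlapping genes on opposite strands are uncertain. The deposited rows for reads assigned to no gene were left out of totals and tests. Of uniquely aligned reads, 14.3% to 61.1% per library were in these rows.

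Vhigh was tested against Vmed by the quasi-likelihood test of edgeR 4.0.16 (R 4.3.3). filterByExpr kept 12688 of 24062 genes, TMM factors were used, the model held the fraction alone, and p-values were adjusted by Benjamini-Hochberg over all tested genes at 0.05. Standard errors come from the information matrix and the quasi-likelihood dispersion. Single genes were also compared by exact permutation of log2 CPM (prior count 2) over all 20 arrangements. Pair log2 ratios used TMM-adjusted CPM plus 0.25. RPKM used exon-union lengths of GENCODE annotation of GRCm38. Values per library are CPM from each table's own gene total.

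Same-numbered libraries deviated together from their fraction means, with r across genes of 0.212, 0.207 and 0.388 in replicates 1, 2 and 3, against -0.289 to -0.006 for other pairs, so that the replicate numbers in the labels were taken as pairs in a fit with a block. No library repeated another, as the chi-square of each pair exceeded the counting noise by far (101.6 per degree of freedom or more).

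The antigen genes, the companion and cell type lists and the tests were chosen with earlier results of these data known. Named genes were all 11 antigen genes, *Pecam1*, *Kit* and *Gata2*. Companion genes were named at an unadjusted p under 0.05 or where the fractions did not overlap. Of the 3 genes nearest in pattern to an antigen gene, all were named for *Gpr56*, and at least the nearest for each other antigen gene. *Cdh5*, marker genes at 0 or with much of the sum of their list, and *Ly6a* relatives were named beside these. Alternatives were other normalizations and filters, the likelihood ratio test, DESeq2 1.42.0 on all genes, limma-voom (limma 3.58.1), removal of Rn45s, the block, and single libraries left out. Leaving out both replicate 1 libraries was added after seeing the data. The procedure was run on simulated data, but its recovery of genes at the spread of these libraries is not reported here. Promoter windows came from RefSeq (GRCm38.p6), which matched 9 of the 11 genes.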

Additional observations from a re-analysis of the deposited data

How the results depend on the processing

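The number of genes past an adjusted p of 0.05 was 0 in the quasi-likelihood test, with 259 at an unadjusted p under 0.05. It was also 0 with RLE, upper quartile or plain library-size scaling, with another filter, without Rn45s and in limma-voom. It was 37 without a filter on low counts (13 higher and 24 lower in Vhigh), 21 in edgeR's likelihood ratio test (11 and 10) and 88 in DESeq2 (37 and 51). With the replicate block it was 0 in the quasi-likelihood test and 74 in the likelihood ratio test (26 and 48), and among the 11 antigen genes the block with the likelihood ratio test moved the call of *Gpr56* alone. With single libraries left out the number was between 0 and 1, the 1 without Vhigh replicate 1. The cause of these differences was not tested.

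Direction was kept by 398 of 414 alternative values with the call unchanged, by 6 with a call gained, and 10 were reversed, each of them with 1 library left out. *Itga2b* then ranged from -0.83 (without Vhigh replicate 3) to 1.25 (without Vmed replicate 3) and *Ly6a* from -0.58 to 6.996, with -0.40 and -0.41 without Vmed replicates 1 and 3. *Cd48* ranged from -0.12 to 5.21, with -0.06 without Vmed replicate 2 and -0.11 without Vhigh replicate 2. *Cd93* ranged from -0.60 (without Vmed replicate 1) to 0.080 (without Vhigh replicate 3), with 0.03 and 0.04 without Vmed replicates 2 and 3. Without both replicate 1 libraries *Cd93* was at -0.78. Mean levels of *Ptprc*, *Procr*, *Cd34* and, in Vmed, *Prom1* moved beyond 1 SD when the longest transcript replaced the exon union, and none did with TMM-adjusted library sizes. At 0.249 to 0.362 CPM for 3 reads, depth limits *Ly6a* and *Cd48* in particular.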
